A study of Solanum lycopersicum with 12 samples.

Results

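The direct comparison of heat with salinity in tomato leaves was examined, with every library chosen by its treatment label. It used 6 of the 12 libraries of the study, 3 from plants under heat and 3 from plants under salinity, and no control library entered the difference itself. The other 6 libraries were 3 from control plants and 3 from plants given salinity and heat together (the combination). They shared in the filter for tested gene models, the scaling and the estimate of the spread, and serve as reference levels. All were messenger RNA libraries from leaves of tomato (Solanum lycopersicum), read as pairs on an Illumina instrument. The labels used here do not give the salt concentration, the temperature, the duration, the cultivar, the plant age or the number of plants behind a library. They also do not say whether replicates came from separate plants, so the p-values measure the spread between these libraries, which may in part be technical.

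Heat and salinity disturb a leaf in different ways. Heat unfolds proteins and makes membranes more fluid. Plant cells answer through heat stress transcription factors, which switch on chaperones such as the small heat shock proteins, and through changes in transpiration and photosynthesis. Salinity first limits water uptake and later loads the tissue with sodium and chloride. Cells answer with abscisic acid signalling, compatible solutes such as proline, ion transport and scavenging of reactive oxygen, which the title of the study places at its centre. The deposited table names gene models only by ITAG identifiers, and none of these was paired with a gene name in the tables used here. The chaperone, abscisic acid, proline and ascorbate genes are therefore not reported by name, and the leaf origin could not be checked against marker genes. Gene models are described below by their level, direction, size of difference, place relative to control and the combination, and chromosome.

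Total counts per library lay between 72291497 and 78370751 in heat and between 59190063 and 72608877 in salinity. At these depths 3 counts corresponded to between 0.0337 and 0.037 CPM in heat and between 0.0469 and 0.0668 CPM in salinity, where CPM are counts scaled to a library of 1000000. Pearson correlations of log2 CPM were 0.976 to 0.984 among the heat libraries, 0.967 to 0.979 among the salinity libraries and 0.831 to 0.896 between them. Salinity replicate 2 had the lowest scaling factor of all libraries (0.668), and its 10 most abundant gene models took 19.0% of its counts, against 14.6% and 16.2% in the other salinity libraries. The SD between replicates had a median of 0.293 in salinity and 0.232 in heat on the log2 CPM scale, and it was larger in salinity for 60.3% of the tested gene models.

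Most of the measured leaf transcriptome differed between the single stresses. Of 20717 tested gene models, 14168 (68.4%) were called, that is, had an adjusted p under 0.05 in the quasi-likelihood test of edgeR after Benjamini-Hochberg adjustment over the whole table. Of these, 7849 (37.9% of those tested) were higher and 6319 (30.5%) lower in heat. The median size of a called difference was 1.34 on the log2 scale. All heat libraries lay on one side of all salinity libraries for 14797 gene models (71.4%), and this was so for 13592 of the 14168 called (95.9%). The share among the called follows largely from the calls, which rest on the same libraries. The number of calls and its direction held with salinity replicate 2 left out, at 12938 calls of which 55.5% were higher in heat, against 55.4% with all libraries.

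The balance between the directions moved with the scaling of the libraries. Increases made up 55.4% of the calls with the TMM factors used here, 51.0% with DESeq2 size factors and 70.7% with total counts alone. Over the 20717 gene models the log2 fold change had a median of 0.15, and of 0.03 and 0.58 under the other scalings. The excess of increases over decreases among all calls is therefore not a result in its own right. A fold change below is relative to the other gene models of the same library, since the amount of RNA per cell was not measured and fewer cells of a type cannot be told apart from less RNA per cell.

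**Figure D1:**
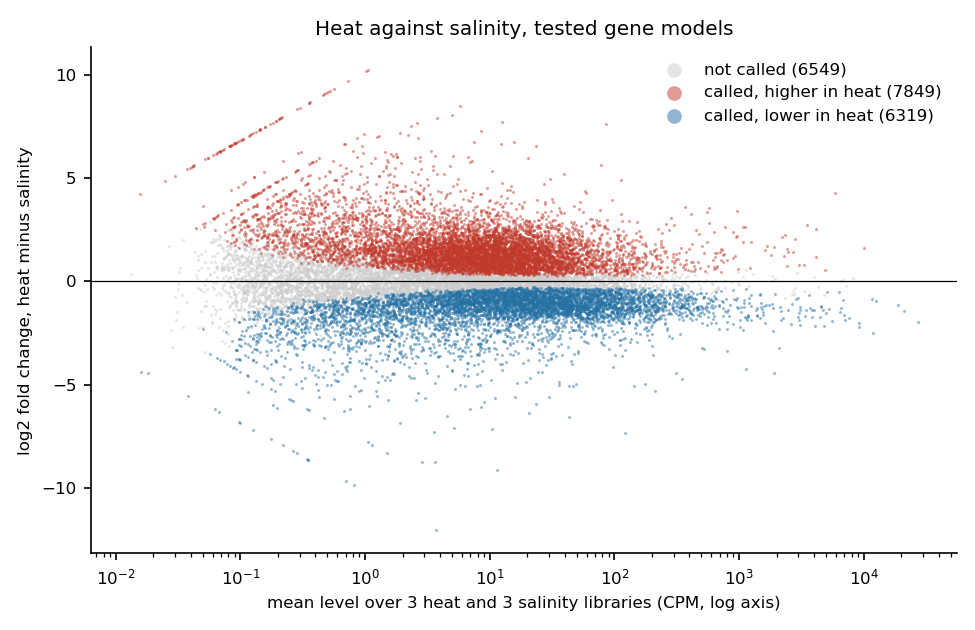
Each point is a tested gene model, placed by its mean CPM over the 6 heat and salinity libraries (log axis) and its log2 fold change, heat minus salinity. Of the 20717 points, 7849 are called higher and 6319 called lower in heat, and the lower calls reach farther to the right, among the most abundant gene models.

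Large differences leaned towards heat in number, but not among the most abundant gene models. A log2 difference of at least 1, a doubling, was reached by 5782 gene models called higher (27.9% of those tested) and 4109 called lower (19.8%). These counts moved with the scaling, to 5206 and 4710 with DESeq2 size factors and to 7824 and 2094 with total counts alone. A log2 difference of at least 2 was reached by 2155 called higher (10.4%) and 1101 called lower (5.31%), so that increases made up 66.2% of this class. Under the other settings tried that share lay between 59.7% with DESeq2 size factors and 83.2% with total counts alone, above 50% in each. With total counts alone this class held 3446 gene models higher and 698 lower in heat. At a log2 difference of at least 5 the class held 171 gene models higher and 75 lower in heat. The share of increases in that class was 65.4% with DESeq2 size factors and 79.0% with total counts alone, against 69.5% in the fit reported here. Some of its gene models had 0 CPM in every salinity library and less than 1 CPM in heat, so their fold changes are uncertain in size. Calls with a mean below 1 CPM over the 6 libraries had a median size of 2.28, against 1.37 from 1 to 10 CPM. At a log2 difference of at least 1, calls below 1 CPM were 1077 higher and 733 lower in heat. From 1 to 10 CPM they were 2629 and 1282, and from 10 to 100 CPM 1900 and 1585. The order turned from 100 to 1000 CPM, with 156 higher and 434 lower, and from 1000 CPM upwards, with 20 and 75. The part of gene models below 1 CPM in the lean towards heat was not tested.

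The direction depended on how many reads a gene model drew. CPM is not divided by transcript length, so the classes that follow sort gene models by level and length together. Of the 137 gene models that averaged 1000 CPM or more over the 6 libraries, 115 were called, 90 of them lower and 25 higher in heat. Between 100 and 1000 CPM, 992 of 1220 were called, 705 lower and 287 higher. Between 1 and 10 CPM the direction was the opposite, with 3485 higher and 1924 lower among 5409 calls. In the class between 10 and 100 CPM, 2945 were higher and 2832 lower, and this order turned with DESeq2 size factors, where 46.6% were higher.

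In the most abundant class, most calls were lower in heat than in salinity under every scaling tried. Among its calls 78.3% were lower in heat here, 79.5% with DESeq2 size factors, 64.3% with total counts alone and 72.7% without salinity replicate 2. In the class from 100 to 1000 CPM the share of decreases was 71.1% here but 53.4% with total counts alone. The share of increases in the class from 1 to 10 CPM was 64.4% here, 59.9% with DESeq2 size factors and 78.1% with total counts alone.

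**Figure D2:**
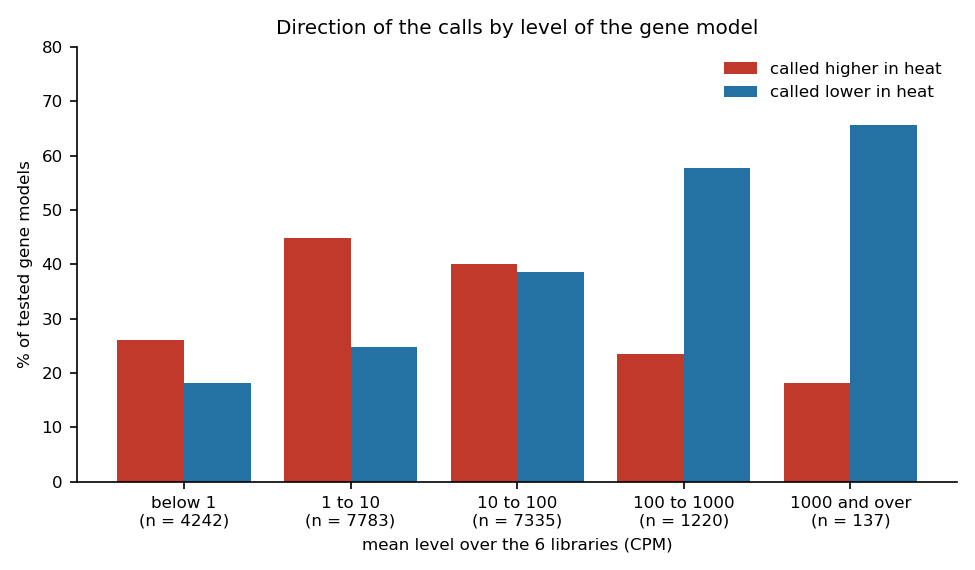
Bars give the percentage of tested gene models called higher (red) and lower (blue) in heat than in salinity, in 5 classes of mean CPM over the 6 libraries, with the number tested under each class. Increases outnumber decreases below 10 CPM, and decreases outnumber increases from 100 CPM upwards.

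The same shift was seen in the share of reads. Gene models called lower in heat took 71.9%, 76.1% and 71.7% of the counts of the salinity libraries and 40.0%, 37.0% and 44.4% of those of the heat libraries. Those called higher in heat took 12.3%, 9.11% and 11.8% in salinity and 39.3%, 43.0% and 34.8% in heat. These groups were chosen on the heat and salinity libraries, so the contrast between these 4 shares follows from the choice. Control and combination libraries entered the choice only through the filter for tested gene models, the scaling and the estimate of the spread. There the gene models lower in heat took 55.3% ± 3.75 and 52.5% ± 4.38 of the counts, and those higher in heat 24.1% ± 3.54 and 26.2% ± 4.21 (mean ± SD, n = 3 each). For both groups these shares lay between those of the heat and the salinity libraries, an interval that the choice itself widened.

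The heads of the lists of abundant gene models differed as well. Of the 10 gene models with the largest mean share of counts, 5 were common to heat and salinity, and of the 50 largest, 31. The 10 largest took 16.5% ± 2.27 of the counts in salinity and 11.5% ± 0.107 in heat (mean ± SD, n = 3 each). Of the 69 gene models among the 50 largest of either stress, 60 were called, 41 lower and 19 higher in heat. Calls were frequent at this level in any case, at 83.9% of the gene models averaging 1000 CPM or more. A gene model that ranks high in only 1 stress is also more likely to be called, so the number called follows in part from the choice.

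The most abundant gene model of the salinity libraries took 3.09%, 4.01% and 3.39% of their counts. It took 1.20%, 1.21% and 1.35% in heat, 2.50%, 3.14% and 2.88% in control, and 1.47%, 1.62% and 1.66% in the combination. Heat and combination libraries were low and control and salinity libraries high, with no overlap, and the log2 fold change in heat against salinity was -1.97 (SE 0.26), with an adjusted p of 3.98e-05. A different pattern was shown by the gene model that ranked 4 in heat. It took 1.42%, 1.32% and 1.08% of the counts in heat and 1.07%, 0.804% and 1.01% in the combination. In salinity its share was 0.0303%, 0.0647% and 0.0391%, and in control 0.0624%, 0.106% and 0.0734%. Every library with heat was thus far above every library without it, and the log2 fold change in heat against salinity was 4.28 (SE 0.40), with an adjusted p of 5.01e-06. The most abundant gene model in heat, at 1.68%, 2.07% and 1.49%, took 0.436%, 0.343% and 0.468% in salinity, with control (1.39%, 1.17% and 0.861%) and the combination (0.851%, 0.556% and 0.721%) between them. These 3 were singled out for their rank, after their values had been seen.

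Beyond the abundant gene models, 8889 were called, had a mean of at least 5 CPM over the 6 libraries and did not overlap between the stresses. The largest fold changes among them are given here by identifier, with the 2 largest in each direction.

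Solyc09g005330.3.1, on chromosome 9, had the largest increase in heat among these gene models. It stood at 11.3, 17.2 and 6.25 CPM in heat, whereas the salinity libraries held 0, 4 and 1 counts, the last 2 equal to 0.0891 and 0.0157 CPM. Control libraries held 4.40, 3.03 and 1.42 CPM and combination libraries 1.74, 0.642 and 0.821 CPM. The order was heat, control, combination and salinity, and heat and salinity did not overlap with any other group. The log2 fold change in heat against salinity was 8.50 (SE 0.83), with an adjusted p of 6.43e-06, and its size rests on the 5 counts in salinity. Against control the fitted log2 values were 1.97 in heat and -6.52 in salinity.

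Solyc09g015840.4.1, also on chromosome 9, followed the same order at higher levels. It was at 26.2, 32.0 and 17.2 CPM in heat and at 0.068, 0.111 and 0.172 CPM in salinity. Control lay at 9.00, 8.34 and 5.64 CPM and the combination at 4.97, 2.39 and 1.70 CPM, and no group overlapped with another. The log2 fold change in heat against salinity was 7.71 (SE 0.53), with an adjusted p of 1.37e-06, a ratio of means of 215. Its size rests on 4, 5 and 11 counts in salinity. Most of the distance to control came from salinity, with a log2 value of -5.99 there and 1.71 in heat.

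Solyc10g078510.3.1, on chromosome 10, had the largest decrease in heat among the same gene models. It was at 12.5, 7.46 and 11.1 CPM in salinity and at 0.0466, 0.0247 and 0.146 CPM in heat. The combination, at 0.196, 0.315 and 0.269 CPM, was close to heat, while control ranged from 2.15 to 7.56 CPM and overlapped with salinity by 1 library. The log2 fold change in heat against salinity was -7.10 (SE 0.65), with an adjusted p of 4.77e-06. Its size rests on 4, 2 and 13 counts in heat, and it lay between -8.11 and -6.72 under the alternatives tried. Against control the log2 values were -5.75 in heat and 1.35 in salinity.

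Solyc12g008650.2.1, on chromosome 12, was next. Its salinity libraries were at 41.0, 71.8 and 145 CPM, a wide range, and its heat libraries at 1.50, 0.173 and 1.09 CPM. Control lay between them at 14.6, 4.64 and 25.6 CPM, and the combination was as low as heat, at 0.0869, 1.44 and 0 CPM. The log2 fold change in heat against salinity was -6.53 (SE 1.15), with an adjusted p of 0.000302. The log2 values against control were -4.01 in heat and 2.53 in salinity. The contrasts with control share the heat or salinity libraries with the direct one, so these values are only set side by side.

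**Figure D3:**
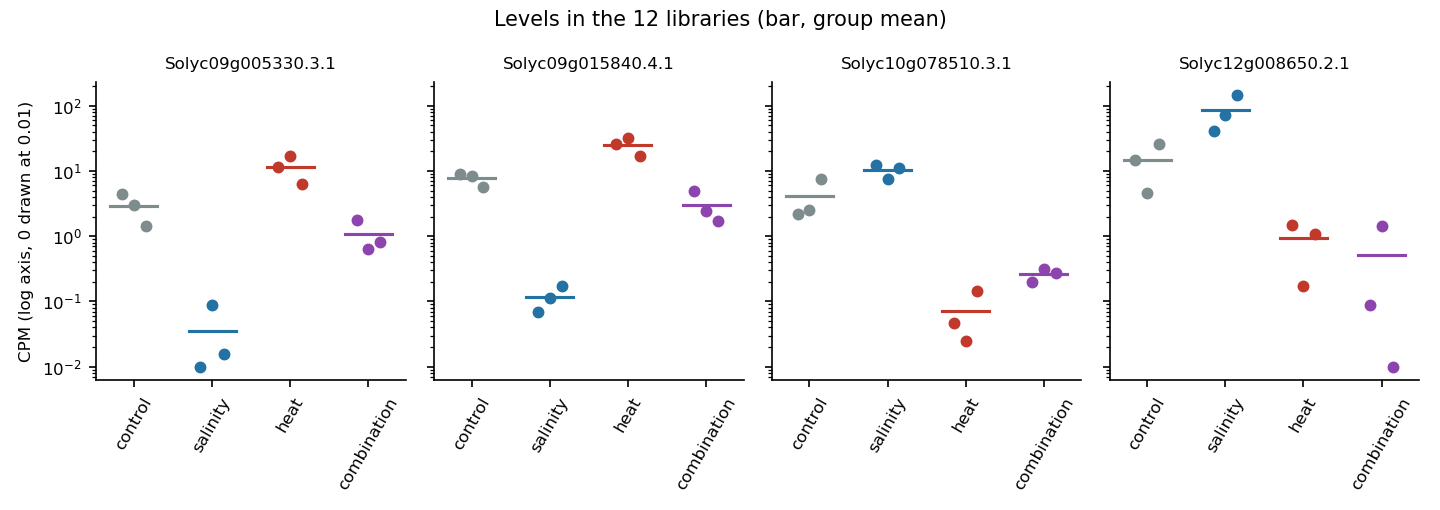
CPM (log axis, 0 drawn at 0.01) in the 12 libraries for the 2 gene models with the largest increase and the 2 with the largest decrease in heat against salinity. Points are libraries and bars group means. The first 2 are lowest in salinity, with the combination above it and below control, and the last 2 are low in both groups with heat.

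A small number of gene models were near silent under one stress and well expressed under the other. Below 1 CPM in all 3 salinity libraries and at least 5 CPM in all 3 heat libraries stood 44 gene models, whose medians were 9.90 CPM under heat and 0.477 CPM under salinity. The reverse held for 19, with medians of 10.9 CPM in salinity and 0.577 CPM in heat. These levels chose the gene models, so they are a description and no test of them is given. Median levels in control were intermediate, at 3.82 CPM for the first group and 4.07 CPM for the second. In the combination the medians were 2.96 CPM and 1.34 CPM. Of the 19 seen in salinity, 5 were below 1 CPM in every combination library and none was at 5 CPM or more in all of them. Of the 44 seen in heat, 1 was below 1 CPM in every combination library and 2 were at 5 CPM or more in all.

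For most called gene models the control mean stood between the stresses, in an interval that the choice of gene models widened. The control mean lay between the heat and salinity means for 76.4% of the gene models called higher in heat and for 76.4% of those called lower. Gene models whose control mean lay below both stress means made up 13.0% and 15.1%, and those above both 10.6% and 8.45%. Among the 6549 gene models that were not called, control lay between the stresses for 22.5%, below both for 47.6% and above both for 29.9%. The called gene models were chosen for heat and salinity means that lay apart, so these shares follow in part from the choice. With a log2 difference of at least 1, the share between rose to 83.0% for gene models called higher and 84.3% for those called lower.

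Side by side, the median log2 fold change of the gene models called higher in heat was 0.70 in heat against control and -0.74 in salinity against control. For those called lower it was -0.47 in heat and 0.72 in salinity. These comparisons share the control libraries. Salinity was farther from control than heat for 57.4% of all called gene models, a share not tried under other scalings or by library. The place of control between the stresses, given below, varied with the scaling and the control library. Among differences of a log2 size of at least 2 the medians were 1.27 in heat and -1.50 in salinity for the increases. For the decreases they were -1.82 in heat and 0.97 in salinity, so that heat had the larger median there.

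The combination mean fell within the same widened interval for 76.4% of the gene models higher in heat and 80.6% of those lower. Combination libraries are not part of the heat minus salinity difference, but they entered the filter, the scaling and the estimate of the spread. Without combination replicate 2 these shares were 79.4% and 73.6%. Under the other scalings, tests and libraries tried, the shares for control and the combination lay between 68.0% and 82.3%. Control and the combination were both in the interval for 62.6% of the gene models higher in heat and 65.9% of those lower.

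The place within that interval was measured on the log2 scale, with salinity at 0, heat at 1 and a pseudocount of 0.5 CPM, for called gene models with a log2 difference of at least 1. Of these, 214 higher and 167 lower in heat were left out because the heat and salinity means differed by less than 0.5 on that scale once the pseudocount was added. The median place of the combination was 0.46 for the 5568 gene models higher in heat and 0.63 for the 3942 lower in heat. Each combination library gave the same order of these medians, with 0.59, 0.29 and 0.48 for the increases and 0.75, 0.45 and 0.67 for the decreases. Combination replicate 2 lay closest to salinity in both, and the spread among the libraries was larger than the difference between the medians. The order was the same with DESeq2 size factors (0.46 and 0.61), and with total counts alone the medians were 0.58 and 0.60. The median place of control was 0.50 and 0.57. With DESeq2 size factors it was 0.53 and 0.56, and with total counts alone 0.44 and 0.54. The control libraries ranged from 0.34 to 0.64 for the increases and from 0.43 to 0.67 for the decreases, in both cases with replicate 3 nearest to salinity.

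**Figure D4:**
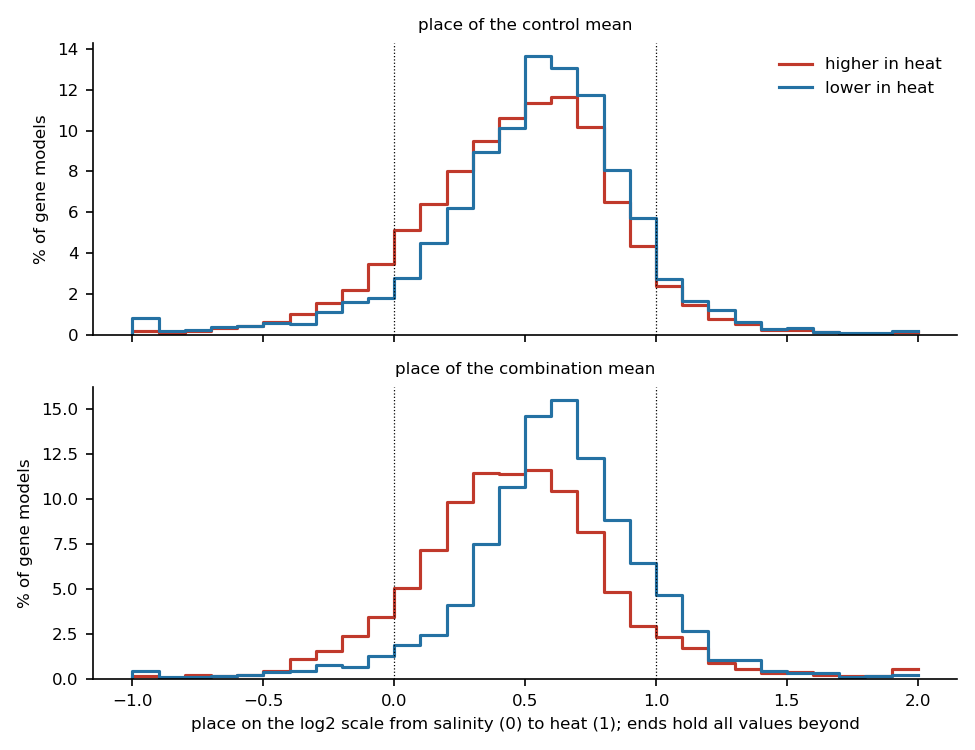
Distribution of the place of the control mean (top) and the combination mean (bottom) on the log2 scale from salinity (0) to heat (1), as the percentage of gene models called higher (red, 5568) or lower (blue, 3942) in heat with a log2 difference of at least 1, without the 214 and 167 left out as too close after the pseudocount. Most values fall between 0 and 1, and in the lower panel the blue line is shifted towards heat, with medians of 0.63 against 0.46.

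The differences were spread over the genome. By the ITAG convention an identifier carries the chromosome and the order of gene models along it. On chromosomes 1 to 12 between 66.7% and 70.8% of the tested gene models were called, close to the 68.4% of all. The share of increases among calls ran from 48.9% on chromosome 12 and 50.6% on chromosome 10 to 62.6% on chromosome 2. No test was made of this range.

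Neighbours moved in the same direction more often than distant gene models. When 2 adjacent tested gene models were both called, they had the same direction in 55.5% of 9796 pairs, against 50.7% of 9142 pairs that lay 100 places apart on a chromosome. With a log2 difference of at least 2 in both members, the shares were 70.0% of 610 adjacent pairs and 57.3% of 483 distant ones. These shares are descriptions, since gene models are not independent. Adjacent gene models can be near-identical copies, and how reads that map to several places were counted is not given in the sources used here, so their part in these shares was not tested.

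At least 4 adjacent tested gene models with a log2 difference of at least 2 in one direction formed 7 runs. Of these, 6 runs with 32 gene models were lower in heat and 1 run with 4 gene models was higher. The longest held 7 gene models on chromosome 8, with log2 fold changes from -7.78 to -2.71. Their summed level was 249, 62.8 and 71.4 CPM in salinity and 6.39, 3.62 and 5.95 CPM in heat. Control lay at 49.5, 38.3 and 77.4 CPM and the combination at 9.05, 25.2 and 4.76 CPM. Heat and combination libraries were low, and the control libraries overlapped with salinity, where replicate 1 stood far above the others.

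A run of 6 on chromosome 1 summed to 96.7, 270 and 170 CPM in salinity and to 13.5, 11.8 and 20.6 CPM in heat. Control lay below every salinity library at 76.7, 76.3 and 83.7 CPM, and the combination between control and heat at 46.4, 69.7 and 41.6 CPM. On chromosome 4, runs of 6 and of 5 gene models lay close together. The first had 36.8, 73.2 and 51.3 CPM in salinity and 10.9, 5.76 and 10.4 CPM in heat, and the second 11.0, 17.6 and 16.3 CPM against 2.27, 0.382 and 2.01 CPM. Both had combination libraries above heat and below control.

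A run of 4 on chromosome 10 reached 413, 240 and 197 CPM in salinity and 27.4, 12.8 and 20.2 CPM in heat. The combination overlapped with heat, at 16.1, 39.3 and 14.6 CPM. The run of 4 on chromosome 9 summed to 130, 70.7 and 39.9 CPM in salinity and 16.3, 6.08 and 12.7 CPM in heat. Its combination libraries, at 36.5, 41.3 and 12 CPM, overlapped with both stresses, and 3 of its 4 members were called in every refit that left out a library. The only run higher in heat, 4 gene models on chromosome 8, had 84.9, 130 and 73.4 CPM in heat and 18.9, 16.2 and 17.3 CPM in salinity. Control (63.6, 54.5 and 40.0 CPM) and the combination (42.4, 23.8 and 36.9 CPM) lay between the stresses without overlap with either.

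**Figure D5:**
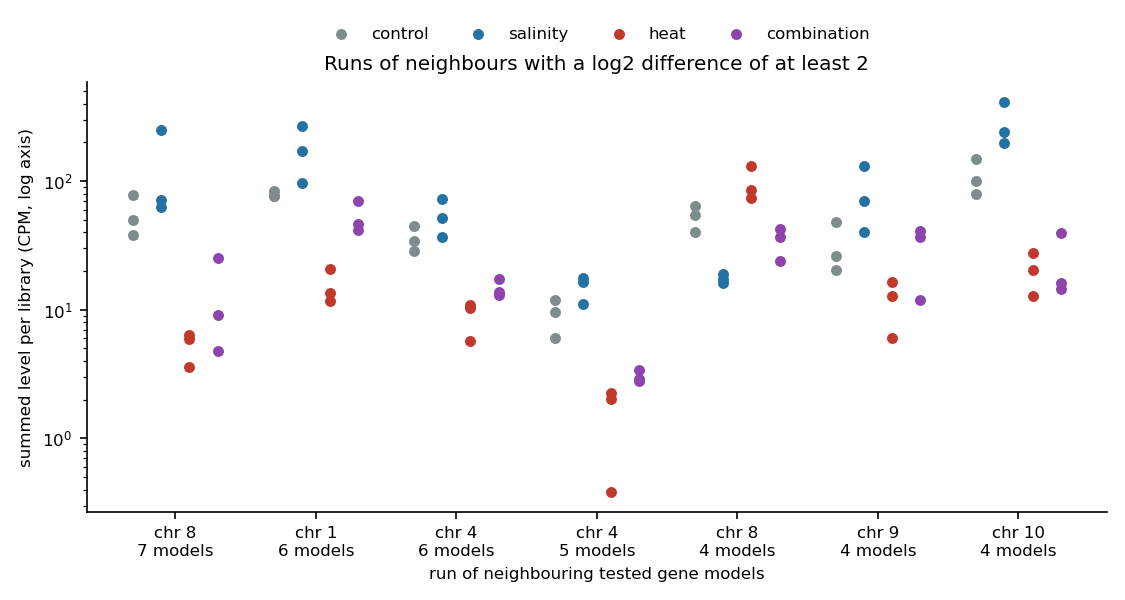
Summed CPM (log axis) of the gene models in each of the 7 runs of neighbours with a log2 difference of at least 2, with 1 point for each of the 12 libraries. In 6 runs the heat libraries lie below all salinity libraries, and in the chromosome 8 run of 4 they lie above.

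For a smaller part of the transcriptome the difference between the stresses was bounded. For 4543 gene models (21.9% of those tested) the 95% interval of the log2 difference lay inside -1 to 1, less than a doubling either way. Of these, 3143 were not called and 1400 were called, so the latter differed, but by a limited amount. For 798 (3.85%) it lay inside -0.5 to 0.5, with none of them called, and 614 of these had a mean of at least 10 CPM. Of the 6549 gene models that were not called, 1993 had an interval wider than 2 log2 units.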

How the data were processed

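The authors deposited a single count table, in whole numbers and not normalized, of 34075 gene models. The submitters' processing notes name Trimmomatic 0.33 and Bowtie2 2.3.4, without their role. The counting program, strandedness, genome build and treatment of reads with several matches are not given in the sources used here, so near-identical, overlapping and antisense gene models have uncertain counts. In each library between 65.98% and 69.83% of counts from 1 to 20 were even. Whether both mates of a pair were counted was not tested.

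Filtering with filterByExpr left 20717 gene models. TMM scaling and a quasi-likelihood model with the 4 treatment groups (edgeR 4.0.16, R 4.3.3) were applied to all 12 libraries, with a common dispersion of 0.0667, and heat minus salinity was tested as a contrast. The SE was taken as the size of the log2 fold change over the square root of F, and intervals at 95% come from it. All 12 pairs of libraries within a group differed by more than sampling noise. The fit was checked on simulated counts with 200 gene models changed in heat, far fewer than were called in the data. It called 99.06% of those with a log2 change of 2 and 21.28% of those with a log2 change of 1. There were 4 false calls.

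Members and lists were chosen with earlier results of these data known. The lists of named pathways could not be filled, because none of the identifiers was found among the 41476 genes of the RefSeq table for SLM_r2.1. The planned promoter search was not made, since no sequences were at hand. Named gene models are the 2 with the largest log2 fold change in each direction with an adjusted p under 0.05, a mean of at least 5 CPM and no overlap. The plan had been to name 8 that the reference describes. With 3 libraries against 3, an exact permutation test cannot go below a p of 0.1, so none was made for single gene models. Alternatives were other scalings, filters, libraries and counts halved, the DESeq2 1.42.0 Wald test, the replicate number as a block and leaving out each library. The classes of level, size, place and neighbourhood were defined after the data were seen.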

Additional observations from a re-analysis of the deposited data

How the results depend on the processing

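The number of gene models called lower in heat fell from 6319 to 3951 with total counts alone and to 4109 with an added log2 threshold of 1, which lowers every count by construction. The cause of the first was not tested. The total, higher and lower counts of calls otherwise stayed within 1.5 times. Within size classes, total counts alone moved the lower calls of a log2 size of at least 1 from 4109 to 2094, and those of at least 2 from 2155 to 3446 higher and from 1101 to 698 lower. Leaving out each of the 12 libraries gave 12567 to 14342 calls, 7008 to 7800 higher and 5559 to 6950 lower in heat, and 11643 of the 14168 calls (82.2%) were made in all 12 of these refits. Without combination replicate 2, which enters the contrast only through scaling and spread, the share of increases was 51.5% and the median log2 fold change of all gene models 0.044. With only the heat and salinity libraries, 13342 were called, 51.6% of them higher, with a median of 0.040. The DESeq2 Wald test called 14598 and halved counts 14229. The 4 gene models given by identifier were called under all 20 alternatives. They had been chosen for the largest differences in the same libraries, so this says nothing about the other calls. Fitting replicate number as a block left 13778 calls. Same-numbered heat and salinity libraries deviated from their groups with a mean correlation of -0.0336 over 3 pairs, against 0.0169 for the others, so the numbers were not taken to pair the libraries, and not every library correlated best with its own number. Of the gene models under 1 CPM, 44.2% were called, and the part of depth in this was not tested.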
